A study of Mus musculus with 4 samples.

Results

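Tetrahydrobiopterin metabolism was described through 6 genes, Qdpr, Gch1, Pts, Spr, Pcbd1 and Pcbd2, out of 20723 gene symbols measured on the arrays. They are the genes whose symbol in the deposited table names an enzyme of synthesis or recycling of the cofactor, and Qdpr came to attention through its low values after Ogt silencing. The set was thus chosen by the log2 differences between esiOgt and esiGFP samples, so the members' values in that comparison are a description, with no test. The samples were E14 mouse embryonic stem cells of strain Ola129, grown on gelatin with 15% serum and LIF, the cytokine that maintains self-renewal. The 2 esiOgt samples had received esiRNA, an enzymatically made pool of short interfering RNAs, against Ogt, and the 2 esiGFP control samples a pool against GFP. RNA was taken 48 h after the transient transfection. Ogt encodes the transferase that attaches O-linked N-acetylglucosamine to proteins.

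Tetrahydrobiopterin is the pterin cofactor of the aromatic amino acid hydroxylases, of the nitric oxide synthases and of alkylglycerol monooxygenase. It is built from GTP by GTP cyclohydrolase (Gch1), pyruvoyl-tetrahydropterin synthase (Pts) and sepiapterin reductase (Spr). After a hydroxylase has used it, pterin carbinolamine dehydratase (Pcbd1, with its relative Pcbd2) removes water from the product and dihydropteridine reductase (Qdpr) reduces the resulting quinonoid dihydrobiopterin back to the active cofactor. The hydroxylases act mainly in liver and brain, and inherited defects of Gch1, Pts, Spr or Qdpr disturb the making of monoamines.

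All values are log2 levels from 1-colour arrays, on which 1 unit is a doubling, and the level of a gene is that of its probe set with the highest mean. Levels are compared between samples, not between genes. Ogt itself read 9.73 and 10.09 in the esiOgt samples, against 11.51 and 11.38 in the esiGFP samples, a log2 difference of -1.54 (SE 0.17), in the direction the labels give. The array medians lay between 6.40 and 6.46. The 8 pluripotency markers, such as Pou5f1 and Nanog, read between 9.41 and 13.46 in the esiOgt samples and between 9.30 and 13.47 in the esiGFP samples. Their log2 differences lay between -0.12 and 0.31. The highest was that of Esrrb (SE 0.11), which read 11.74 in both esiOgt samples, against 11.45 and 11.41 in the esiGFP samples. For the other cell types the unlogged levels of the markers were summed and the log2 of the sum is given. For 7 fibroblast markers it was 8.83 in both esiOgt samples, against 8.95 and 9.04 in the esiGFP samples. For 6 primitive endoderm markers it was 9.23 and 9.42 against 9.30 and 9.41. For 5 neural markers it was 9.55 and 9.34 against 9.80 and 9.62. Such a sum follows the brightest markers most. The neural factor gene Pax6, which held the highest neural value in the esiGFP samples (8.31), had a log2 difference of -0.97 (SE 0.44). The log2 differences of the 5 neural markers ran from that value to 0.33. The part of these markers in the results below was not tested.

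Qdpr, the reductase of the recycling step, was lower in the silenced cells. Its level was 9.54 and 8.92 in the esiOgt samples, against 10.82 and 10.72 in the esiGFP samples. Both silenced samples lay below both controls, and the empty space between the groups, 1.17 log2 units, was wider than the gap between the silenced samples (0.63) or between the controls (0.10). The mean was 9.23 ± 0.44 (SD, n = 2) in esiOgt and 10.77 ± 0.07 (SD, n = 2) in esiGFP, a log2 difference of -1.53 (SE 0.24) or 2.90-fold. Only 8 of the 20723 gene symbols had a lower difference. The silenced sample with the lower Qdpr, replicate 2, was the one with the higher Ogt. Fewer cells with the transcript and less transcript per cell cannot be told apart in RNA of whole cultures.

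Pcbd1, whose product feeds the reductase its substrate, was the other member with lower values. It read 8.77 and 8.91 in the esiOgt samples, against 9.35 and 9.41 in the esiGFP samples. The groups did not overlap, and the space between them, 0.44, exceeded the gap within esiOgt (0.14) and within esiGFP (0.06). Its means were 8.84 ± 0.10 and 9.38 ± 0.04 (SD, n = 2 each), a log2 difference of -0.54 (SE 0.12) or 1.45-fold. Its relative Pcbd2 lay on the other side of 0, with 8.10 and 7.75 in the esiOgt samples, against 7.80 and 7.45 in the esiGFP samples. Here the groups overlapped, because replicate 1 was the higher sample in each group by about as much (0.35 in esiOgt and 0.34 in esiGFP) as the groups differed (log2 difference 0.30, SE 0.20).

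Of the 3 genes of synthesis, Pts, the middle step, was higher in the silenced cells. It read 6.72 and 6.73 in the esiOgt samples, against 6.45 and 6.06 in the esiGFP samples. The groups did not overlap, but the space between them (0.27) was smaller than the gap between the controls (0.39). The log2 difference was 0.48 (SE 0.17), or 1.39-fold, and it lay between 0.28 and 0.67 when 1 sample at a time was left out. Gch1, the entry step from GTP, read 5.10 and 4.99 in the esiOgt samples, against 5.07 and 4.76 in the esiGFP samples. Its groups overlapped and the log2 difference was 0.13 (SE 0.16). Without esiGFP replicate 2 the difference was -0.02. The files hold no detection call, so whether values as low as those of Gch1 stand above background is not known.

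Spr, the last step of synthesis, gave no single answer, because its 2 probe sets differed in direction. The brighter probe set read 8.78 and 9.10 in the esiOgt samples, against 8.73 and 8.93 in the esiGFP samples, with overlapping groups and a log2 difference of 0.11 (SE 0.17), which was -0.05 without esiOgt replicate 2. The dimmer one read 5.03 and 5.17 in the esiOgt samples, against 5.79 and 5.45 in the esiGFP samples, with a log2 difference of -0.52 (SE 0.17) and no overlap. The mean of both probe sets differed by -0.21. The other 5 members have 1 probe set each.

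**Figure D1:**
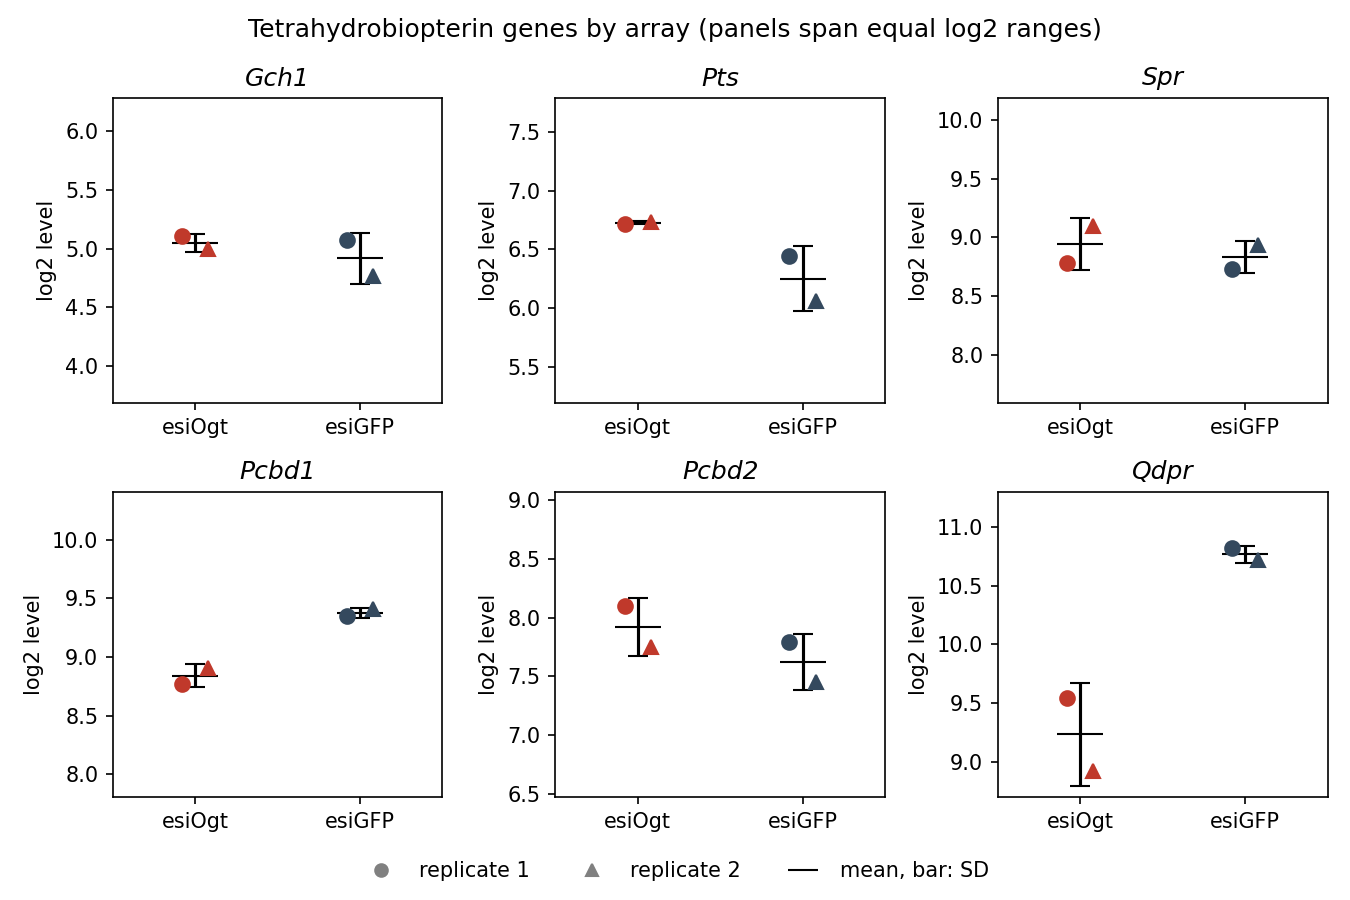
Log2 level of each of the 6 genes (y axis, every panel spanning the same number of log2 units) in the esiOgt samples (red) and the esiGFP samples (dark blue). Circles are replicate 1, triangles replicate 2, dashes the mean and bars the SD of 2 samples. Qdpr and Pcbd1 are lower and Pts higher in both silenced samples, while the other panels overlap.

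In all, 4 of the 6 genes had higher and 2 lower mean values in esiOgt, with a median log2 difference of 0.12, beside a median of 0.00 over all gene symbols. The groups did not overlap for 3 of the 6, 2 lower and 1 higher. Over all gene symbols the groups did not overlap for 39.5%, with 19.4% lower and 20.0% higher. Only Qdpr differed by 1.5-fold or more, which 2.60% of all gene symbols did. Over all gene symbols, 5% had a log2 difference under -0.35 and 5% one above 0.38. Qdpr, Pcbd1 and Pts lay outside this range, with 8, 313 and 20143 gene symbols having lower differences. In limma's moderated test over all 34760 probe sets, 0 passed an adjusted p of 0.05 (0.00%). The smallest adjusted p was 0.674, and 2565 probe sets (7.38%) had an unadjusted p under 0.05.

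**Figure D2:**
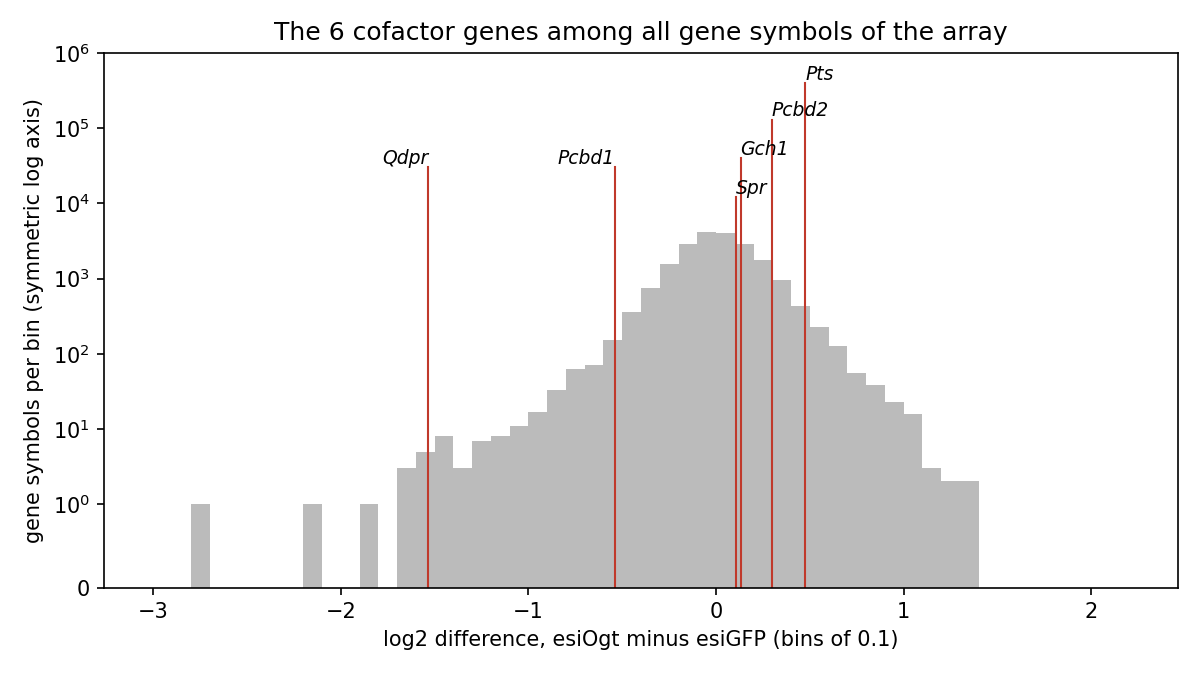
Number of gene symbols (y axis, symmetric log scale) by log2 difference, esiOgt minus esiGFP (x axis, bins of 0.1), with the 6 cofactor genes as red lines whose height carries no value. Qdpr, at -1.53, lies in the sparse left tail, Pcbd1 and Pts at the flanks, and Gch1, Spr and Pcbd2 inside the bulk.

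The promoters of Qdpr, Pcbd1 and Pts, the members whose groups did not overlap, are shown to let their sequence be compared. Each runs 5′ to 3′ on the gene's strand over 250 bases before and 50 after the start, from RefSeq on GRCm38.p6, with GC boxes (GGGCGG on either strand) in capitals.
Qdpr, chr5:45450180-45450479, minus strand: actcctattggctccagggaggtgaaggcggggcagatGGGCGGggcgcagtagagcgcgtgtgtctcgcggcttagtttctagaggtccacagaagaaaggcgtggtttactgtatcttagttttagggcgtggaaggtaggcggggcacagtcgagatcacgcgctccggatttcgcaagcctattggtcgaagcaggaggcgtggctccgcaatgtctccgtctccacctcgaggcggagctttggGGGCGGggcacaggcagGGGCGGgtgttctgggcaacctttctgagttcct
Pcbd1, chr10:61089081-61089380, plus strand: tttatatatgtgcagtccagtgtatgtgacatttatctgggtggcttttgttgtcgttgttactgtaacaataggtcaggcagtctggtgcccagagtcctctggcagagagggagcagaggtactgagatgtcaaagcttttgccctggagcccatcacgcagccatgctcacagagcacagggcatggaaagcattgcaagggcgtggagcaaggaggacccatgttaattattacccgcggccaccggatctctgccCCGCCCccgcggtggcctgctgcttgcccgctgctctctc
Pts, chr9:50528607-50528906, minus strand: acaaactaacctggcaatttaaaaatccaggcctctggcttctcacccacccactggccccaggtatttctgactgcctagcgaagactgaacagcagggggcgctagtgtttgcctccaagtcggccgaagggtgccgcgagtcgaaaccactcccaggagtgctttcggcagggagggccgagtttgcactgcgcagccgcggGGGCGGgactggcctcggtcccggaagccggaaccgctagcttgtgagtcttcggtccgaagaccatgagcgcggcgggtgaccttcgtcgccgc
All 6 members matched a window in this set. Qdpr had 23 CpG dinucleotides, more than 78.5% of the 32851 windows, whose median is 7. Pcbd1, the other gene with lower values, had 10, and Pts, the gene with higher values, had 25. Gch1 had 20, Spr 16 and Pcbd2 36. The GC box occurred 3 times in the Qdpr window, 2 times each in Gch1 and Spr, 1 time each in Pts and Pcbd1 and 0 times in Pcbd2. It is common, found in 35.7% of all windows. The CCAAT box (CCAAT on either strand, in 37.4% of windows) occurred 2 times in Qdpr and 1 time in Gch1, and the TATA box (TATAAA on either strand, in 13.6%) 1 time each in Gch1 and Pcbd1. None of the 6 windows held the E box CACGTG (7.15%) or the cAMP response element TGACGTCA (1.79%). The CACGTG and TGACGTCA letters each read the same on both strands and were counted once, and none of the motifs searched contains another. Neither CpG number nor GC boxes separated the genes with lower values from the rest. Binding and methylation were not measured on these arrays.

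The genes that assist the cofactor's makers and users showed no shared direction. Of the 5 described, 3 lay above and 2 below the controls, the median log2 difference was 0.02, and 0 had an unadjusted p under 0.05 in limma, against 6.06% of all gene symbols. Gchfr, the feedback regulator of GTP cyclohydrolase, stood at -0.17 (SE 0.18) and Akr1b3, an aldose reductase of the side route, at -0.24 (SE 0.24). The carbonyl reductase genes Cbr1 and Cbr3 stood at 0.05 (SE 0.12) and 0.02 (SE 0.50). For Cbr3 the samples of replicate 2 were higher by about 1 unit in each group, so its difference is poorly measured. Dnajc12, a co-chaperone of the aromatic amino acid hydroxylases, stood at 0.31 (SE 0.20).

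Among 7 enzymes that need the cofactor, 5 had lower and 2 higher values, with a median log2 difference of -0.11. None passed the adjusted test, and 0 had an unadjusted p under 0.05 in limma, where 3.40% of all gene symbols were higher and 2.66% lower at that level. Nos3, the endothelial nitric oxide synthase, read 7.41 and 6.93 in the esiOgt samples, against 7.90 and 7.46 in the esiGFP samples. The groups were apart by less than the gap inside either one (log2 difference -0.51, SE 0.25). Nos2, the inducible form, stood at -0.18 (SE 0.12) and Nos1, the neuronal form, at -0.11 (SE 0.20). The tyrosine hydroxylase gene Th stood at -0.11 (SE 0.15), the tryptophan hydroxylase genes Tph1 and Tph2 at -0.04 (SE 0.14) and 0.02 (SE 0.12), and Agmo, the alkylglycerol monooxygenase, at 0.08 (SE 0.14). Tph1, Tph2 and Agmo had esiGFP means of 4.65, 4.17 and 3.57, and Th and Nos2 of 6.15 and 5.71, all under the array medians. Whether such values stand above background is not known, so small differences there do not show unchanged expression.

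**Figure D3:**
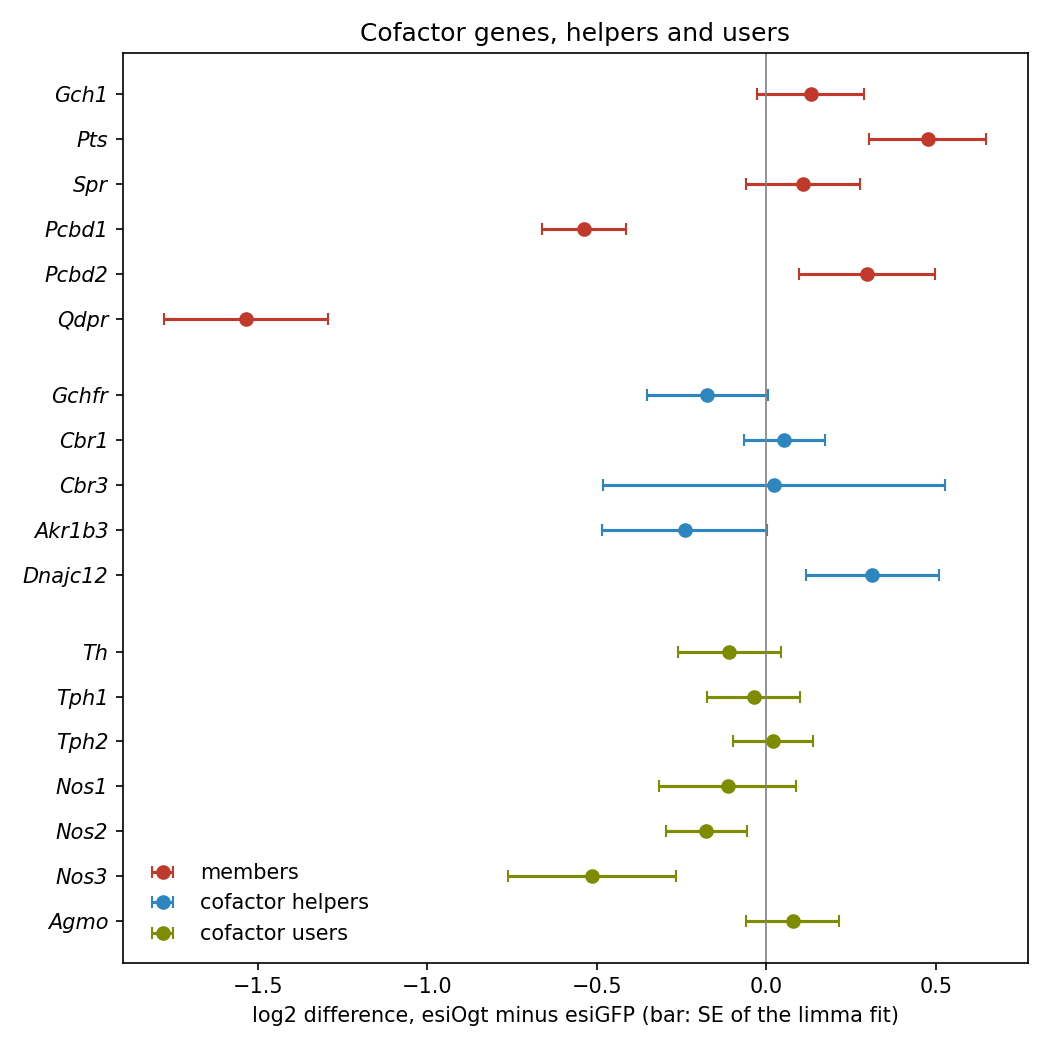
Log2 difference, esiOgt minus esiGFP (x axis), with the SE of the limma fit as bars, for the 6 members (red), 5 helpers (blue) and 7 users of the cofactor (green). Qdpr lies apart at -1.53, and the helpers and users lie between -0.51 and 0.31.

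Further along the pathways of the aromatic amino acids and amines, 8 of 11 genes had lower and 3 higher values, and the median log2 difference was -0.11. Over all gene symbols, 10122 of 20723 were lower. None passed the adjusted test, and 2 had an unadjusted p under 0.05 in limma, both lower. At that level stood 6.06% of all gene symbols, 2.66% of them all being lower ones. Maoa, the monoamine oxidase that breaks down serotonin and catecholamines, read 7.66 and 6.82 in the esiOgt samples, against 8.54 and 8.54 in the esiGFP samples. Both silenced samples were lower, and replicate 2 was again the lowest (log2 difference -1.30, SE 0.31, 2.47-fold, limma adjusted p = 0.674). Fah, the last enzyme of tyrosine breakdown, read 9.56 and 8.84 in the esiOgt samples, against 10.36 and 9.83 in the esiGFP samples, with a log2 difference of -0.89 (SE 0.32) and the same adjusted p in limma (0.674). Dbh, the dopamine hydroxylase, stood at 0.18 (SE 0.17), with an esiGFP mean of 4.81, under the array medians.

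Folate, another pterin of the cell, and the purines that supply GTP had balanced counts. Of 24 folate genes, 14 lay above and 10 below the controls, the median log2 difference was 0.05, and 1 in each direction had an unadjusted p under 0.05. Aldh1l1, a formyltetrahydrofolate dehydrogenase, read 8.53 and 8.23 in the esiOgt samples, against 7.96 and 7.36 in the esiGFP samples (log2 difference 0.72, SE 0.25). Gcsh, the carrier protein of the glycine cleavage system, read 7.50 and 7.85 in the esiOgt samples, against 8.13 and 8.61 in the esiGFP samples (log2 difference -0.69, SE 0.23). Mtfmt, the mitochondrial formyltransferase, stood at 0.39 (SE 0.18). Of 19 purine genes, 11 lay above and 8 below, with a median of 0.02 and 0 at that level. Ppat, the entry enzyme of purine synthesis, stood at 0.38 (SE 0.14), Adssl1 at 0.35 (SE 0.64) and Nme2 at -0.21 (SE 0.16). Over the 5 lists, 4 of 66 genes had an unadjusted p under 0.05, or 6.06%, the same share as among all gene symbols, and 0 passed the adjusted test.

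On the chromosome, none of the measured genes beside Qdpr had a difference as low. The neighbours are 10 measured protein-coding genes, the next 5 on either side in the order of GRCm38.p6, whatever their distance in bases. They had log2 differences between -0.24 and 0.31 and a median of 0.14. Of them 6 were higher and 4 lower, and 0 had an unadjusted p under 0.05 in limma, against 6.06% of all gene symbols. The first on either side are Ldb2, a LIM domain binding factor, at 0.14 (SE 0.13), and Clrn2, a clarin, at -0.05 (SE 0.14). Beyond Clrn2, Lap3, a leucine aminopeptidase, read 11.99 and 12.12 in the esiOgt samples, against 11.88 and 11.86 in the esiGFP samples. Its log2 difference was 0.18 (SE 0.12). The Mediator gene Med28 stood at 0.15 (SE 0.14), Fam184b at -0.19 (SE 0.17) and the condensin gene Ncapg at -0.19 (SE 0.15). On the other side, Tapt1 stood at 0.19 (SE 0.11), Fgfbp1 at -0.24 (SE 0.41) and the NAD glycohydrolase gene Cd38 at 0.31 (SE 0.24). The stem cell surface marker gene Prom1 stood at 0.20 (SE 0.27), or -0.01 with its probe sets averaged. Ldb2, Clrn2, Fam184b and Fgfbp1 had esiGFP means of 4.78, 6.06, 5.57 and 5.81, under the array medians. At such levels a fall may not be seen.

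**Figure D4:**
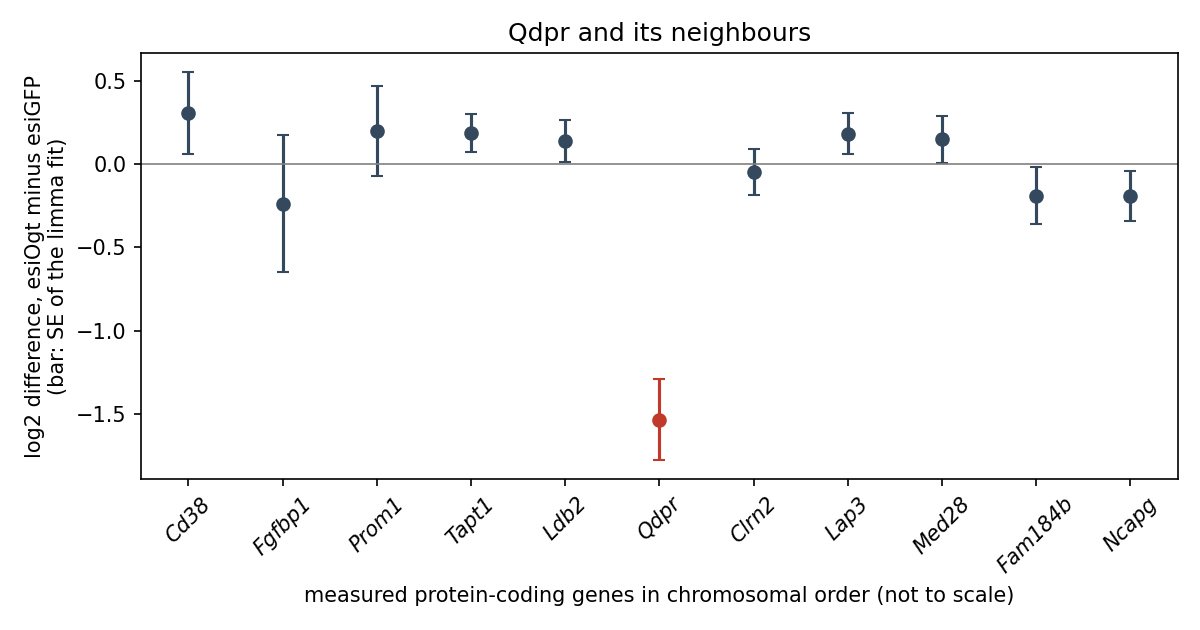
Log2 difference, esiOgt minus esiGFP (y axis), with the SE of the limma fit as bars, for Qdpr (red) and the 5 nearest measured protein-coding genes on either side (dark blue), in chromosomal order and not to scale. The neighbours lie between -0.24 and 0.31.

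The genes whose profile over the 4 samples was most like that of Qdpr were found by the Euclidean distance between log2 values centred on each gene's mean, and are given as a description. The median distance to Qdpr over 20717 gene symbols was 1.62. The nearest was Hsd17b7, a sterol reductase of cholesterol synthesis and, like Qdpr, a short-chain dehydrogenase, at a distance of 0.18. It read 6.85 and 6.29 in the esiOgt samples, against 7.97 and 8.10 in the esiGFP samples. Pcbp3, an RNA-binding protein gene, followed at 0.19, with 7.85 and 7.02 in the esiOgt samples, against 9.03 and 8.78 in the esiGFP samples. Mgea5, now Oga, whose enzyme removes the sugar that Ogt attaches, came next at 0.23, with 8.75 and 8.45 in the esiOgt samples, against 10.19 and 10.07 in the esiGFP samples. Maoa, already given, stood at 0.29, and the repressor gene Zhx1 also at 0.29. In all 5, as in Qdpr, esiOgt replicate 2 was the lowest of the 4 samples, which follows from choosing them by nearness to Qdpr. Among the members, Pcbd1 was nearest to Qdpr, at 1.14, and Pts farthest, at 2.07.

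**Figure D5:**
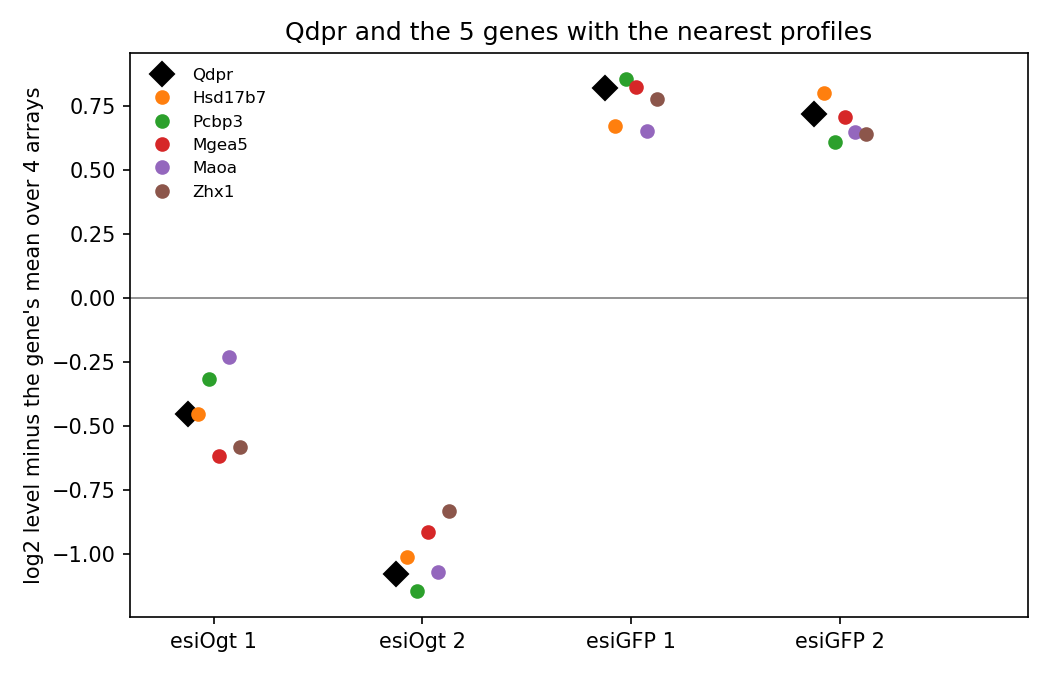
Log2 level minus the gene's own mean over the 4 samples (y axis) by sample (x axis), for Qdpr (black diamonds) and the 5 genes with the nearest profiles (coloured circles). In every one esiOgt 2 lies lowest and both esiGFP samples lie above 0, as follows from the choice by nearness to Qdpr.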

How the data were processed

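Total RNA of 4 samples was measured on 1-colour arrays after 150 ng was turned into biotin-labelled cDNA, per the labels' protocols. The authors deposited log2 expression values. RMA, which corrects background, normalizes and summarises probes, and limma were used per the submitters' processing notes; for versions, array type and build the sources used here give nothing. The authors' deposited table also holds a p-value and a log2 fold change per probe set. Scan batches and background readings were not analysed here, and the number of arrays limits the precision. Separate cultures are not stated for the replicates, so a p-value covers the spread of these samples alone, possibly a technical one.

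All 34760 probe sets were fitted with lmFit and eBayes of limma 3.58.1 (R 4.3.3), group as the only term, with Benjamini-Hochberg adjustment. This gave the authors' deposited p-values to within 4.84e-08. Of a gene's probe sets, the one with the highest mean was used. An accession look-up in RefSeq (GRCm38.p6, names, gene order and promoters only) gave the same symbol for all 6 members.

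The members and lists were chosen with earlier results of these data known. The text names the members, Ogt and Mgea5, the helpers, users and neighbours, the 3 largest differences of each other list, and the 5 profiles nearest to Qdpr. Some genes of the helper and user lists as first drawn up are not reported here, and the counts and medians of these lists cover only the genes named. Pax6 and Esrrb were named after their values were seen. Alternatives were median centring, quantile normalization, a level filter, a variance trend, the replicate block, averaging a gene's probe sets and leaving out each sample.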

Additional observations from a re-analysis of the deposited data

How the results depend on the processing

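The count of probe sets at an adjusted p under 0.05 in limma was 0 under every alternative run. The unadjusted p was under 0.05 for 2565 probe sets (1256 gene symbols). A replicate block, whose pairing is not stated in the labels, gave 5279 (2782), and samples with the same number deviated together from their group means (r = 0.479 across probe sets). Without probe sets under the median level there were 1512, a count in a smaller set that cannot be set directly beside the 2565. Leaving out 1 sample gave 1276 to 2788 probe sets and 373 to 1286 gene symbols. The gene symbols were 647 without esiOgt replicate 2, 576 without esiGFP replicate 1 and 373 without esiGFP replicate 2, in fits with fewer residual degrees of freedom.

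With 2 samples a group balanced over the numbers, a block cannot change a difference of means, so the members' differences stay the same. It can change their SEs, and the SEs given here come from the fit without it. Qdpr lay between -1.85 and -1.22 over all settings, Pcbd1 between -0.61 and -0.47, Pts between 0.28 and 0.67 and Pcbd2 between 0.12 and 0.47, each with its sign kept. Gch1 and Spr did not keep theirs when 1 sample was left out (-0.02 to 0.29 and -0.05 to 0.27), and Spr stood at -0.21 as the mean of its probe sets, by the opposite sign of the dimmer one. With 1 sample left out, the median of the cofactor users lay between -0.18 and 0.033, its sign lost without esiGFP replicate 2, and that of the aromatic amino acid and amine genes between -0.11 and 0.00087, the upper end without esiGFP replicate 1. The helpers' median lay between -0.03 and 0.11, the purine median between -0.02 and 0.02, the folate median between 0.01 and 0.09 and the neighbours' median between 0.05 and 0.18, the lower ends of the folate and neighbours' medians without esiOgt replicate 2. The neighbours' median was 0.06 with probe sets averaged. The cause of these shifts was not tested. No detection calls were at hand, so values near the lower end of the scale may hold little signal.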
